A study of Rattus norvegicus with 862 samples.

Results

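The nuclear genes of oxidative phosphorylation were followed in rat hearts. They were taken by symbol, as all genes whose names start with Nduf, Uqcr, Cox4, Cox5, Cox6, Cox7, Cox8 or Atp5, together with Sdha, Sdhb, Sdhc and Sdhd. Of 14217 genes with a probe set of their own on the array, 86 met this rule. They comprised 34 subunits of complex I, 4 of complex II, 7 of complex III, 16 of complex IV and 15 of complex V, 6 assembly factors of complex I and 4 further genes. The 4 further genes were Atp5if1, an inhibitor of complex V, Cox7a2l, which helps to join complexes III and IV, Ndufa4l2, a relative of the complex IV subunit Ndufa4, and the pseudogene Cox6c-ps1. Cox7a2, Atp5mc1, Atp5mc2, Uqcrb, Ndufs5 and Ndufa10 were met only by probe sets that carry a second symbol and were not measured here. Cox5a was measured by a dim probe set, at 8.17 on the log2 scale in controls, since its other probe set carries a second symbol.

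In the inner mitochondrial membrane, complexes I to IV pass electrons from NADH and succinate to oxygen and pump protons, and complex V uses the returning protons to make ATP. The heart draws most of its ATP from this chain and has many mitochondria, so its subunit transcripts are among the most abundant of the tissue. Several complex IV subunits exist as isoform pairs, one of heart and skeletal muscle and one general.

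The hearts came from male Sprague-Dawley rats (Crl:CD (SD), purchased at an age of 6 to 8 weeks), hybridised to a whole-genome Affymetrix rat array. The treated rats numbered 611, each with 1 of 88 compounds, and 217 vehicle controls had labels that agree; 12 further controls, whose labels disagree on vehicle or route, entered no comparison. A profile here is a compound at 1 dose in 1 vehicle and by 1 route, and 95 of 97 profiles had controls that match in vehicle, route, duration and RNA extraction campaign. The described rats received sulindac (132 mg/kg), dexamethasone (1 mg/kg) or cyclosporin A (350 mg/kg) in corn oil by gavage, imatinib (150 mg/kg) or acrolein (20 mg/kg) in water by gavage, fluocinolone acetonide (2.5 mg/kg) in corn oil under the skin, or isoprenaline (2 mg/kg) in saline by subcutaneous mini-pump. Their controls received the same vehicle by the same route. Only imatinib and isoprenaline had such controls in the same study. In the other described profiles, treatment and study cannot be told apart. Sulindac, dexamethasone and cyclosporin A were given for 3 or 5 d and the others for 1, 3 or 5 d, and the 19 controls of sulindac, dexamethasone and cyclosporin A were the same animals. Heart tissue was measured in bulk, so that fewer cells of a type and less RNA per cell cannot be told apart. The mean of 3 atrial genes ran from 6.75 to 10.98 after sulindac and 7.57 to 13.11 after dexamethasone, beside 5.72 to 10.21 in their controls. After acrolein it ran from 6.47 to 12.80, beside 5.87 to 12.92. The median change of these genes was 2.06 after sulindac, 1.58 after dexamethasone and 1.39 after acrolein. It was -0.43 after imatinib, -0.47 after cyclosporin A, -0.49 after isoprenaline and -0.73 after fluocinolone acetonide. None of these genes was called. The part of atrial tissue in the results was not tested. The heart muscle genes were high in every described group, with means over 14 such genes of 13.31 to 13.82.

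The upstream sequence of some members, all but Atp5po described below, is shown for its motifs. It holds the 150 bases before the start that the RefSeq promoter table uses on build GRCr8. How often the motifs occur over the members is given after the sequences. For Cox7a1 that start lies 19553 bases inside the annotated gene, and for Ndufs8 9 bases. Capitals mark a match to GCGCA, any base and GCGC, the core of the site of NRF1, a regulator of respiratory chain genes, or to CCGGAAG, an ETS-type site, each searched on both strands. Ndufs8, Ndufb7 and Ndufv3 are complex I subunits, Atp5po is a complex V stalk subunit, and Cox7a1 and Ndufa4l2 are the members called most often.
Ndufa4l2 (chr7:65242019-65242168, plus strand): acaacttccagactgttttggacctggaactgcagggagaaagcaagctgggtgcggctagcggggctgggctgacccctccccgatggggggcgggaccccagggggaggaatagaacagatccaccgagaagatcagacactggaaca
Cox7a1 (chr1:94569066-94569215, plus strand): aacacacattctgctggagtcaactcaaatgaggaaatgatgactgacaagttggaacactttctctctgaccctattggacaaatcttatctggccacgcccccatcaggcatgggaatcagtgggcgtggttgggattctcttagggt
Ndufs8 (chr1:210573699-210573848, minus strand): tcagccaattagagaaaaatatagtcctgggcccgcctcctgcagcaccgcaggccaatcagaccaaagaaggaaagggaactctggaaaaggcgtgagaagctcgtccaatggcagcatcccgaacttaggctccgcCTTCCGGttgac
Ndufb7 (chr19:41477292-41477441, minus strand): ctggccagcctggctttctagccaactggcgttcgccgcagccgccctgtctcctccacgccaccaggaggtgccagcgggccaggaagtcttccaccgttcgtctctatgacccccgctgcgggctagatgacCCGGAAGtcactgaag
Ndufv3 (chr20:9613636-9613785, plus strand): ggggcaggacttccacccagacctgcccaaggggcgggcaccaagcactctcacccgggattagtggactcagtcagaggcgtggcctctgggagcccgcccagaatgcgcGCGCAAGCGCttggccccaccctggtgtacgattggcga
Atp5po (chr11:44657484-44657633, minus strand): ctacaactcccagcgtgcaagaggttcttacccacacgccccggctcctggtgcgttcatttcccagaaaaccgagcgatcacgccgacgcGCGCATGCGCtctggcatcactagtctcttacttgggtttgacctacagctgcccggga

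Of the 86 members, 78 had a promoter in the RefSeq table. Over the 250 bases before the start, 12 of the 78 (15.4%) held the NRF1-type letters, against 937 of the 13242 promoters of genes on the array (7.08%). The letters CCGGAAG were in 21 of the 78 (26.9%) and in 12.2% of the promoters of genes on the array. AAGGTCA, the core of the site of the estrogen-related receptors, was in 6 members (7.69%) and in 2.95% of array genes. ACGTG, the core of hypoxia response elements, was in 18 members (23.1%) and in 20.4% of array genes, and was not in the window of Ndufa4l2. A match of letters is no evidence of binding.

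The measured levels of the members differed little between treated and control hearts. Calls required a limma p-value, adjusted after Benjamini and Hochberg over all genes of a profile, that was at most 0.01, and a change of at least 1.5-fold. Of 8170 pairs of member and profile, 8 were called (0.0979%), 1 higher and 7 lower, against a background of 0.702% over all genes and profiles, 0.357% higher and 0.344% lower. Of the 86 members, 81 were called in no profile, while 18.7% of all genes were called in at least 1. Complexes II, III and V had no call in any profile, complex I had 1 and complex IV had 3. Without the fold minimum, 26 pairs were higher and 142 lower (2.06%), against 1.93% over all genes. By direction, 0.318% of the member pairs were higher, where 0.866% of all pairs were, and 1.74% were lower, where 1.06% were. The pairs that passed lay in 23 of 95 profiles. Of the 142 lower ones, sulindac held 44, acrolein 27, isoprenaline at 2 mg/kg 13 and cyclosporin A at 350 mg/kg 11. Within 1.5-fold of the controls lay 99.8% of the member pairs and 98.3% of all pairs. The median size of a change was 0.0598 for members and 0.0848 for all genes on the log2 scale. The median SD over all vehicle controls, pooled over vehicles, durations and campaigns, was likewise smaller, at 0.159 for members and 0.216 for all genes.

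**Figure D1:**
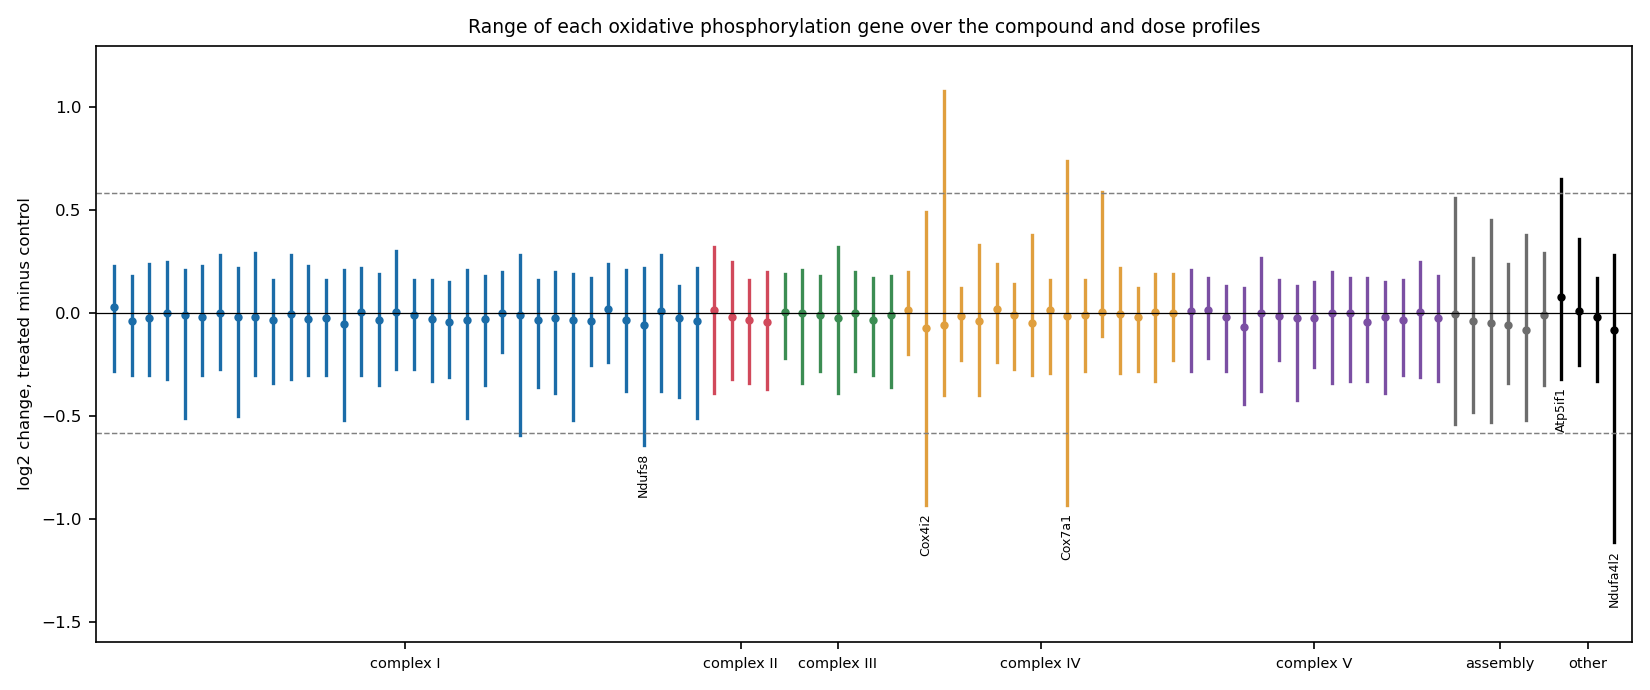
Each vertical line spans the lowest to the highest log2 change of 1 member over 95 profiles, with its median as a point, grouped along the x axis by complex; dashed lines mark a 1.5-fold change. Nearly all members stay between the dashed lines, and the 5 named genes are those called in at least 1 profile.

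A total of 13 pairs lay beyond 1.5-fold, and 5 of these did not pass the adjusted p. They were Cox5a after 1,4-dichlorobenzene (log2 change 1.08, SE 0.34, adjusted p 0.0881), Cox7a1 after metoprolol at 120 mg/kg (0.74, adjusted p 0.123) and vinblastine (-0.59, adjusted p 0.0255), Cox7b2, a testis isoform, after terfenadine (0.59, adjusted p 0.206) and Ndufc1 after loratadine (-0.59, adjusted p 0.721).

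Cox7a1, Cox5a, Cox4i2 and Ndufa4l2 had the widest ranges, that of Cox5a, from -0.40 to 1.08, resting on its dim probe set. Cox4i1, the general isoform of subunit 4, moved between -0.20 and 0.20 on the log2 scale over 95 profiles, while Cox4i2, an isoform of lung and of low oxygen, moved between -0.93 and 0.49. Ndufa4 ran from -0.23 to 0.19 and Ndufa4l2, which hypoxia is known to induce, from -1.11 to 0.28. Cox6a2 and Cox8b, the heart and muscle isoforms, ran from -0.24 to 0.24 and from -0.33 to 0.19. The general isoforms Cox6a1 and Cox8a ran from -0.40 to 0.33 and from -0.28 to 0.12. Cox7a1, the heart and muscle isoform of subunit 7a, ran from -0.93 to 0.74, and its control animals varied with an SD of 0.408 (n = 217), beside 0.121 for Cox4i1. The 4 subunits of complex II, which oxidises succinate, stayed between -0.39 and 0.32 (Sdha), -0.32 and 0.25 (Sdhb), -0.34 and 0.16 (Sdhc) and -0.37 and 0.20 (Sdhd). These levels and ranges are each relative to the gene's own probe set, and Cox4i1 was bright in controls (13.86) where Cox4i2 was dim (7.61).

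Ndufa4l2 was called in 3 profiles, the most of any member, each time lower. After dexamethasone its log2 level was lowest at 6.48, with a median of 6.88 and a highest value of 7.17 in 6 animals, beside 7.61, 7.94 and 8.30 in 19 controls. All treated animals lay below all controls. For this and the other profiles, the share of all genes without overlap between groups was not counted. The change was -1.11 (SE 0.094, adjusted p 7.65e-10), and in the same profile 3.68% of all genes were called lower and 2.6% higher. After fluocinolone acetonide the 9 animals ran from 6.82 over a median of 7.18 to 7.84, and the 9 controls from 7.66 over 8.04 to 8.15. The groups overlapped by 1 treated animal of 1 d at 7.84. The change was -0.71 (SE 0.095, adjusted p 2.23e-05), against 3.28% of all genes called lower and 2.45% higher.

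Imatinib, an inhibitor of the ABL, KIT and PDGF receptor kinases, lowered both Ndufa4l2 and Cox4i2. For Ndufa4l2 the 9 treated animals ran from 6.55 over a median of 7.10 to 7.50 and the 9 controls from 7.83 over 8.02 to 8.24. For Cox4i2 they ran from 5.92 over 6.77 to 7.23 beside 7.42, 7.59 and 7.83 in controls. Neither gene overlapped between groups. Ndufa4l2 changed by -1.0 (SE 0.096, adjusted p 6.37e-05) and Cox4i2 by -0.93 (SE 0.12, adjusted p 0.000817), in a profile where 0.19% of all genes were called lower and 0.0281% higher. No further member was called or passed without the fold minimum, where 0.401% of all genes were lower and 0.0352% higher. The changes at 1, 3 and 5 d were -0.74, -0.83 and -1.43 for Ndufa4l2 and -0.59, -0.77 and -1.44 for Cox4i2, and the interaction with duration did not pass (adjusted p 0.259 and 0.419). Without the 3 d animals Cox4i2 no longer passed (-1.02, adjusted p 0.0567). The partner isoforms did not pass, with 0.01 for Ndufa4 (adjusted p 0.936) and 0.02 for Cox4i1 (adjusted p 0.889). The remaining members lay between -0.18 and 0.18, and the median of all 86 was -0.02. At 15 mg/kg, with 9 animals and 9 controls, Ndufa4l2 was at -0.13 (SE 0.076, adjusted p 1) and Cox4i2 at -0.18 (SE 0.062, adjusted p 1).

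Levels of pericyte genes are given beside these results, since Ndufa4l2 and Cox4i2 are known from pericytes, the contractile cells around capillaries; the list was chosen after the values were seen. After imatinib the mean of the 8 pericyte genes ran from 7.83 to 8.72 in treated and from 8.75 to 9.10 in control animals, with no overlap. Of the 8 genes, 2 were called lower, Kcnj8, a potassium channel subunit (-1.09, adjusted p 0.00383), and Rgs5, a regulator of G protein signalling (-0.81, adjusted p 0.00122). Macrophage genes moved too, with 2 of 8 called lower, Csf1r (-0.60, adjusted p 0.00493) and C1qa (-0.62, adjusted p 0.00343). After dexamethasone 3 of 8 pericyte genes were called lower, among them Rgs5 (-1.02, adjusted p 1.21e-07), with list means of 7.98 to 8.61 beside 8.63 to 9.13. After fluocinolone acetonide 2 of 8 were called lower, Rgs5 (-0.75) and Mcam (-1.37), with means of 8.14 to 8.75 beside 8.66 to 8.96. In both steroid profiles 8 of 10 fibroblast and matrix genes were called lower, with list means of 8.44 to 9.37 beside 10.43 to 11.24 after dexamethasone, and 5 of 8 macrophage genes were called higher. Of 7 endothelial genes, Tie1 and Emcn were called lower in both, with list means of 9.21 to 9.42 beside 9.41 to 9.88 after dexamethasone. After imatinib 1 of 4 red blood cell genes, Ahsp, a chaperone of alpha-globin, was called lower (-0.87, adjusted p 0.00413). After sulindac Ndufa4l2 (-0.44, adjusted p 0.00528) and Cox4i2 (-0.56, adjusted p 0.00121) were also lower without the fold minimum. There 0 of 8 pericyte genes were called, with list means of 8.41 to 8.95 beside 8.63 to 9.13. Without the fold minimum 2 were lower and 1 higher. The part of these cell types in the Ndufa4l2 and Cox4i2 results was not tested. Of 12 hypoxia response genes, none was called after imatinib, while after dexamethasone Adm, the vasodilator adrenomedullin, was called higher (1.23) and Vegfa (-0.61) and Hk2 (-0.78) were called lower.

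**Figure D2:**
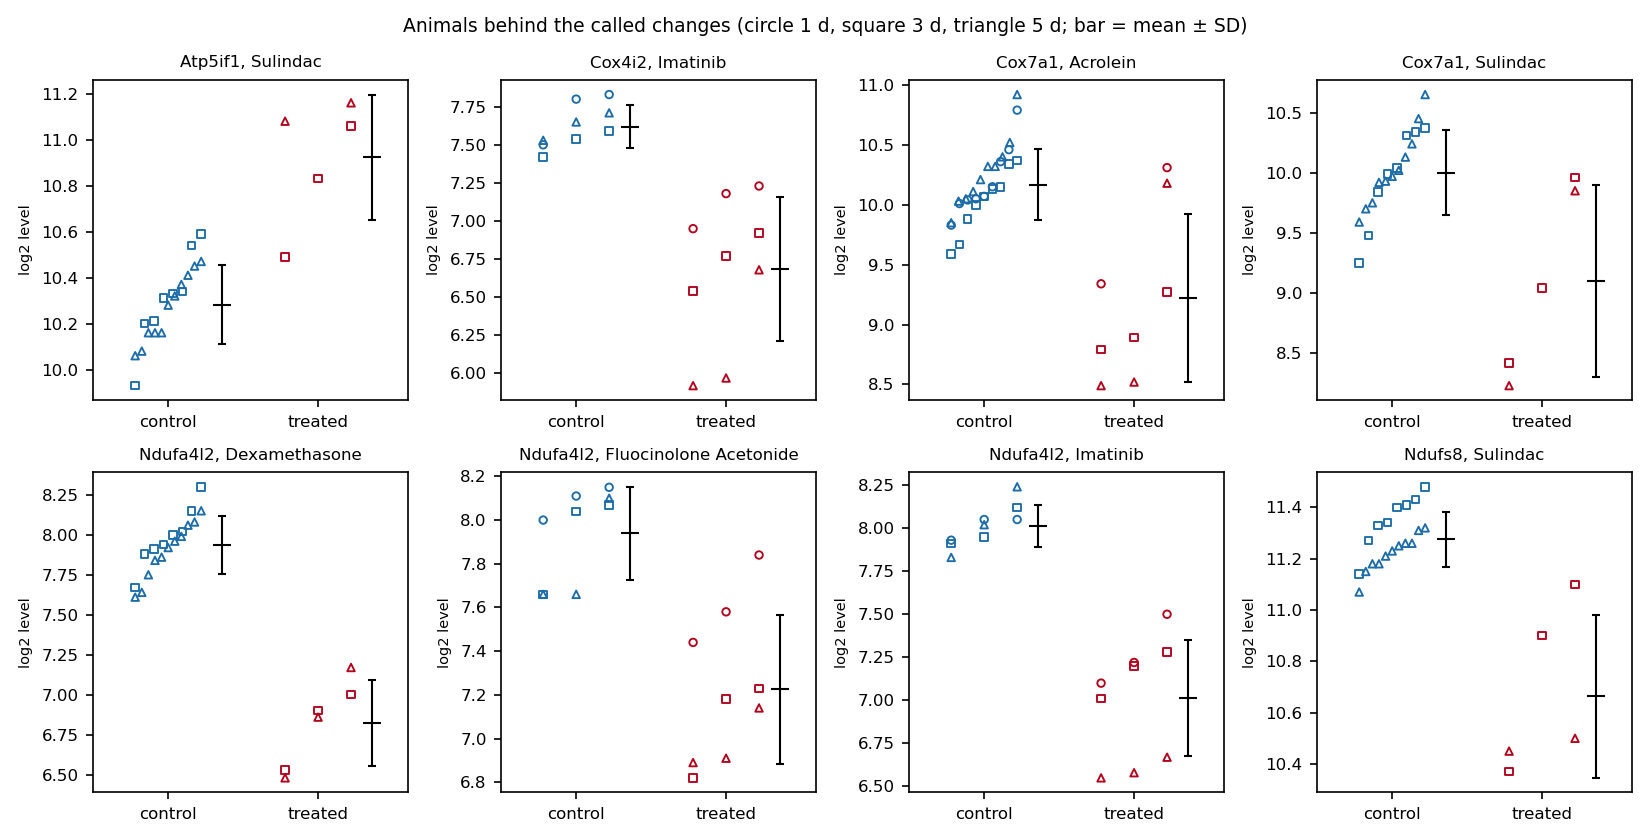
Each point is the log2 level of 1 animal for a called gene and profile, with controls in blue and treated animals in red, the shape giving the duration and the bar the mean with its SD. Ndufa4l2 and Cox4i2 are separated after imatinib, and Ndufa4l2 after dexamethasone, while Cox7a1 overlaps its controls after acrolein and sulindac.

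The other corticosteroids were given at other doses, vehicles and durations, so that their values are set side by side without a comparison. Ndufa4l2 was at -0.42 after hydrocortisone (56 mg/kg, 9 animals, adjusted p 0.00301, not called for its size) and at -0.18 after fludrocortisone acetate (125 mg/kg, 9 animals, adjusted p 0.0869). It was at -0.19, -0.17 and -0.10 after cortisone, prednisone and prednisolone, each with 3 animals of 1 d. Cox4i2 was at -0.50 after dexamethasone (adjusted p 0.00297), -0.38 after fluocinolone acetonide (adjusted p 0.0392) and -0.27 after hydrocortisone (adjusted p 0.0779). It was at -0.17 after fludrocortisone acetate, -0.03 after cortisone, 0.04 after prednisone and 0.30 after prednisolone, and none of these passed. A few complex I subunits were slightly higher without the fold minimum after dexamethasone, fluocinolone acetonide and hydrocortisone. Ndufa7, an accessory subunit of the electron input module, was higher by 0.28, 0.29 and 0.29 after dexamethasone, fluocinolone acetonide and hydrocortisone, and Ndufs6, of the same module, was higher by 0.19 and 0.24 after dexamethasone and fluocinolone acetonide and stood at 0.17 after hydrocortisone (adjusted p 0.0214). After the other 4 steroids neither passed, with Ndufa7 between -0.18 (prednisone) and 0.11 (fludrocortisone acetate) and Ndufs6 between -0.08 and 0.09. Ndufa12, also of complex I, was higher after fluocinolone acetonide (0.22) and hydrocortisone (0.24) and lower after sulindac (-0.30) and acrolein (-0.18). At the adjusted p alone, 4 members were higher and 4 lower after dexamethasone, where 5.99% and 8.32% of all genes were, and 5 were higher and 1 lower after fluocinolone acetonide, against 4.69% and 6.75%. The steroid counts were unstable, since both fell to 1 after dexamethasone and the higher one to 3 after fluocinolone acetonide when single animals were left out, treated ones in the former and 1 treated and 1 control in the latter. With hybridisation batch as a fixed factor 1 member was higher after dexamethasone and 0 were after fluocinolone acetonide, and after a new quantile normalization 2 were in each. The medians over all members were 0.04 and 0.07.

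**Figure D3:**
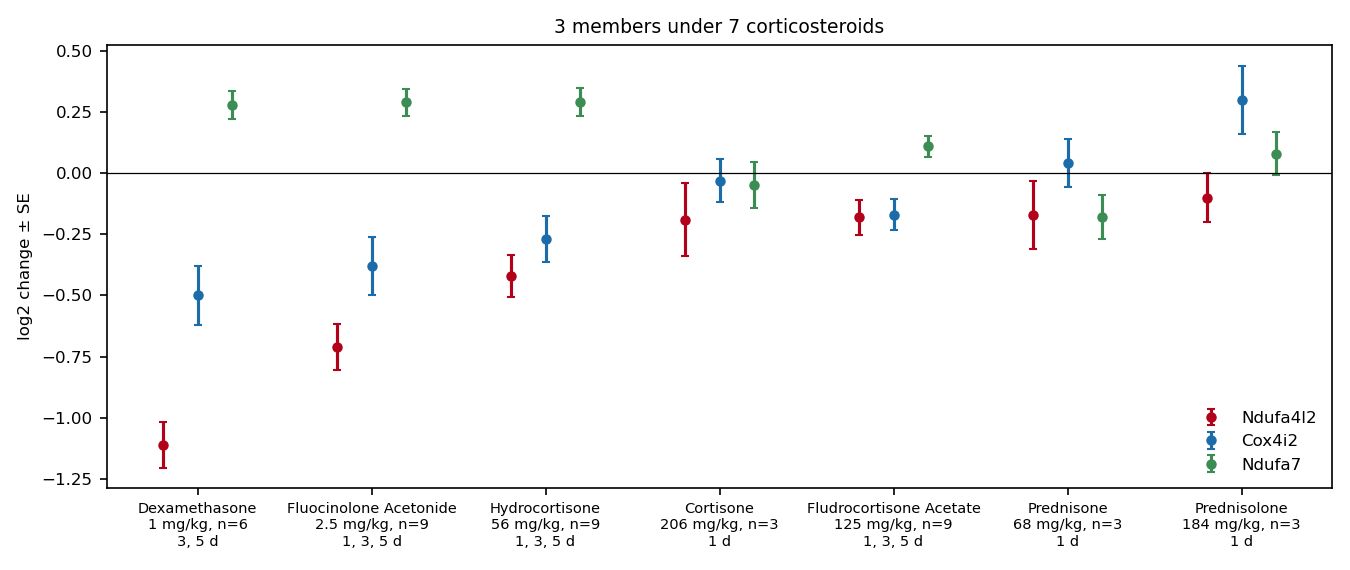
Points give the log2 change of Ndufa4l2, Cox4i2 and Ndufa7 with its SE under 7 corticosteroids, whose dose, number of treated animals and durations stand below the axis. Ndufa4l2 lies lowest after dexamethasone at -1.11, then after fluocinolone acetonide at -0.71 and hydrocortisone at -0.42.

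Sulindac, a non-steroidal anti-inflammatory drug, gave the most calls, 1 member higher and 2 lower, where 3.5% and 2.05% of all genes were called. Ndufs8, a core iron-sulfur subunit of complex I, was at 10.37, 10.90 and 11.10 in the 3 animals of 3 d and at 10.45 and 10.50 in the 2 of 5 d. The 19 controls ran from 11.07 over a median of 11.26 to 11.48, so that 1 treated animal overlapped. The change was -0.64 (SE 0.078, adjusted p 1.55e-06). Cox7a1 was at 8.42, 9.04 and 9.96 at 3 d and at 8.23 and 9.85 at 5 d, beside controls from 9.25 over 9.99 to 10.65. Its level was low in 3 treated animals and within the control range in the other two. The change was -0.89 (SE 0.22, adjusted p 0.00517). It did not pass with the methods' t-test (adjusted p 0.0116), with hybridisation batch as a fixed factor (adjusted p 0.0752), nor with adjustment over all genes and profiles (adjusted p 0.0227). It also missed the threshold without any 1 of 3 treated animals, the smallest change being -0.63 (adjusted p 0.0564) without 1 of 5 d. Without 1 animal of 3 d, that with a subunit mean of 12.02, Cox7a1 was at -0.73 and Ndufs8 at -0.55, within 1.5-fold, and 0 members were called lower.

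Atp5if1, which holds back complex V when the membrane potential collapses, was the sole member called higher. After sulindac it was at 10.49, 10.83 and 11.06 at 3 d and at 11.08 and 11.16 at 5 d, beside controls from 9.93 over 10.31 to 10.59. Of the treated animals, 1 lay within the control range. The change was 0.65 (SE 0.099, adjusted p 3.3e-05). The call rested on 1 of its 3 probe sets, since the other two, dim at 5.67 and 4.49 in controls, changed by -0.01 (adjusted p 0.959) and -0.10 (adjusted p 0.503). At the adjusted p alone the bright probe set was also higher after doxorubicin (0.51), valproic acid (0.50), epirubicin (0.48), tacrolimus (0.40), cyclosporin A at 350 mg/kg (0.36) and allylamine at 75 mg/kg (0.33). It was lower in no profile at that threshold, where 0.866% of all pairs of gene and profile were higher and 1.06% lower. How many of all genes were higher in as many profiles was not counted.

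A broad small decrease stood behind the sulindac calls. Without the fold minimum, 44 of 86 members were lower, where 5.26% of all genes were, and 1 was higher, where 6.66% of all genes were. The 44 comprised 20 of 34 complex I subunits, 3 of 4 of complex II, 4 of 7 of complex III, 5 of 16 of complex IV and 8 of 15 of complex V, beside 2 of 6 assembly factors, Ndufa4l2 (-0.44, adjusted p 0.00528) and Cox7a2l (-0.23, adjusted p 0.00806). Complex I fell by a median of 0.25 and complex II by a median of 0.33. Ndufa6 (-0.50, SE 0.066), Ndufv2 (-0.41, SE 0.059) and Ndufb7 (-0.51, SE 0.074) of complex I, and Sdhb (-0.32, SE 0.059), the iron-sulfur subunit of complex II, had no treated animal within the control range. These members were picked after their values were seen, and the share of all genes without overlap was not counted. The partner subunits Cox4i1 (-0.07, adjusted p 0.283), Cox6a2 (0.05, adjusted p 0.555) and Cox8b (-0.09, adjusted p 0.171) did not pass. The median over all 86 members was -0.23, where that over all genes was -0.01. The mean over the 76 subunits of complexes I to V was 12.02, 12.20 and 12.21 in the animals of 3 d and 12.03 and 12.04 in those of 5 d, below the control range of 12.24 to 12.41. The count of 44 fell to between 26 and 29 without any 1 of 3 treated animals, those with the lowest subunit means (2 of 5 d and 1 of 3 d), to 25 with adjustment over all genes and profiles and to 16 with hybridisation batch as a fixed factor.

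Genes around the chain were lower in the same hearts. Of 13 citric acid cycle genes 10 were lower without the fold minimum, among them Idh3a, a subunit of isocitrate dehydrogenase (-0.69, adjusted p 2.48e-06), which was called. Of 49 mitochondrial ribosome genes 21 were lower, Mrpl12 (-0.63) and Mrpl19 (-0.59) being called, and of 30 assembly genes outside the members 8 were lower. Of 15 regulators of mitochondrial biogenesis, 2 were called lower, Ppargc1b, a coactivator (-1.13, adjusted p 0.00258), and Ppara, a nuclear receptor of fatty acid oxidation (-0.63, adjusted p 0.000113). Marker genes of other cell types moved in the same animals. All 8 macrophage genes were called higher, with list means of 8.82 to 9.53 beside 7.24 to 7.94 in controls, 4 of 10 fibroblast and matrix genes were called lower and 1 was called higher. The heart muscle list, with means of 13.59 to 13.72, overlapped its controls (13.58 to 13.81). The part of the macrophage genes in the subunit result was not tested.

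**Figure D4:**
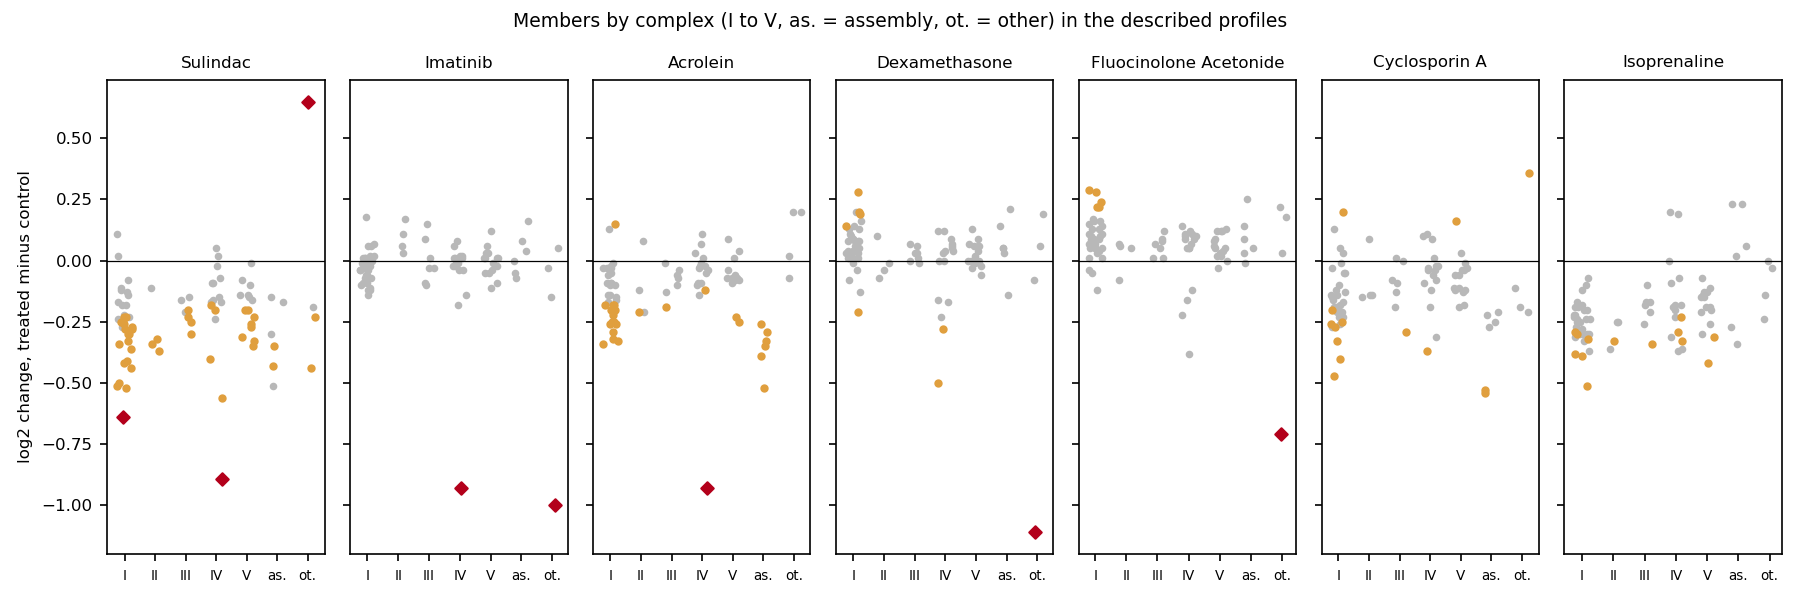
Each point is the log2 change of 1 member, in columns by complex, in 7 profiles; grey did not pass, orange passed the adjusted p of 0.01 within 1.5-fold and red diamonds were called. Most points lie below 0 after sulindac, acrolein, cyclosporin A and isoprenaline, with medians of -0.23, -0.09, -0.13 and -0.22, and on both sides of it after imatinib.

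Acrolein, a reactive aldehyde, lowered Cox7a1, where 1.13% of all genes were called lower and 0.978% higher. The 8 treated animals ran from 8.49 over 9.08 to 10.31 and the 28 controls from 9.59 over 10.12 to 10.92. Of the treated animals, 6 lay below all controls and 2, of 1 and of 5 d, within their range. The change was -0.93 (SE 0.15, adjusted p 3.17e-05), at -0.37, -1.04 and -1.21 at 1, 3 and 5 d with no interaction (adjusted p 0.724), and missed the threshold without the 3 d animals (-0.86, adjusted p 0.0107). By the adjusted p alone 27 members were lower, where 7.51% of all genes were, and Ndufs6 was higher (0.15, SE 0.04), where 4.48% were. They included all 6 assembly factors, led by Ndufaf7 (-0.52, SE 0.084), and 15 of 34 complex I subunits, such as Ndufc2 (-0.29, SE 0.042), Ndufb10 (-0.33, SE 0.053) and Ndufs8 (-0.34, SE 0.055). Complexes II, III, IV and V had 1, 1, 2 and 2. The count depended on the controls, with 3 lower when controls of every campaign were used and 14 with hybridisation batch as a fixed factor. Beyond the members, 37 of 49 mitochondrial ribosome genes and 14 of 30 other assembly genes were lower without the fold minimum. Of 8 macrophage genes 4 were called higher, with list means of 7.75 to 8.58 beside 7.27 to 7.87, and their part in the result was not tested.

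Cyclosporin A at 350 mg/kg gave no member call, where 1.06% of all genes were called higher and 0.865% lower. At the adjusted p alone 11 members were lower and 3 higher, where 2.9% and 3.09% of all genes were. The lower count was 24 with hybridisation batch as a random block, 20 with controls of every campaign and 17 with batch as a fixed factor, and the higher count was 0 with adjustment over all genes and profiles. Ndufs8 ran from 10.56 over 10.82 to 11.03 in 6 animals, below all 19 controls (11.07 to 11.48), a change of -0.47 (SE 0.058). Ndufb10, of the membrane arm, was also below its controls (-0.40, SE 0.064), and the assembly factors Ndufaf1 (-0.54) and Ndufaf4 (-0.53) were lower. Atp5f1b, the catalytic subunit of complex V, was higher by 0.16 (SE 0.038) with no overlap between groups. At 300 mg/kg in acacia, with 9 animals and 9 controls, 1 member was lower at that threshold, Ndufs8 (-0.35, adjusted p 0.00718). Vehicle and durations differ between these profiles. The 3 higher members at 350 mg/kg were 0 or 1 without any 1 of 5 treated or 2 control animals of 3 or 5 d. The 4 red blood cell genes were called lower at 350 mg/kg and 5 of 8 macrophage genes higher, and their part was not tested.

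Ndufs8 and Ndufb10 were lower in more profiles than other members once the fold minimum was left out. Ndufs8 was lower in 9 profiles and higher in 1, and Ndufb10 lower in 8. Both were lower after epirubicin (-0.35 and -0.33), doxorubicin (-0.30 and -0.29), tacrolimus (-0.31 and -0.19) and terfenadine (-0.28 and -0.22). Atp5f1d, of the central stalk of complex V, was lower in 6, down to -0.35 after sulindac. Cox6a1 was lower in 4, after rapamycin (-0.40), epirubicin (-0.38), cyclosporin A (-0.37) and vinblastine (-0.36). Epirubicin and doxorubicin share their controls, as do tacrolimus and terfenadine, and sulindac and cyclosporin A, so that these values are not independent. These members were picked for their counts. Of all pairs of gene and profile, 1.06% were lower and 0.866% higher at the adjusted p alone. How many of all genes passed in as many profiles was not counted.

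Isoprenaline, an agonist of beta-adrenergic receptors, was described in addition, chosen after its values were seen. No member was called, where 1.05% of all genes were called higher and 0.816% lower. The mean over the 76 subunits was 11.95, 12.27 and 12.31 at 1 d, 11.80 and 12.21 at 3 d and 12.08, 12.11 and 12.27 at 5 d, beside controls of 12.29 to 12.40 (n = 9). All treated animals but 1 lay below all controls. All 34 complex I subunits, all 4 of complex II, all 7 of complex III and all 15 of complex V had negative changes, with medians of -0.26, -0.29, -0.18 and -0.19. At the adjusted p alone 13 members were lower, where 2.14% of all genes were and 1.8% were higher, among them Ndufv3 (-0.51, SE 0.12), Atp5me (-0.42, SE 0.082) and Cox8b (-0.33, SE 0.068). This count ran from 2 to 15 when 1 animal was left out, and was 7 or less without any 1 of the 9 controls or of 4 treated animals. It fell to 2 after a new quantile normalization and to 0 with hybridisation batch as a fixed factor, where 4 genes of all passed. The members' median was then -0.17. With controls of every campaign the count was 38. At 4.2 mg/kg, with 5 animals and 4 controls, the median was -0.20 and no member passed. In the animals given 2 mg/kg the heart muscle list was lower, at 13.31 to 13.68 beside 13.71 to 13.82, and the fibroblast and matrix list ran from 10.75 to 12.47 beside 10.54 to 10.90. Of the latter, Postn (3.22), Col1a1 (1.17) and Col1a2 (0.98) were called higher. The macrophage list ran from 8.16 to 9.50 beside 7.64 to 8.26, with Mrc1 called higher (1.06). Tagln, of smooth muscle, was called higher (0.73) and Vtn, of the pericyte list, lower (-0.80). The part of these lists in the subunit result was not tested.

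Over all 95 profiles the median of the members ran from -0.233 to 0.137 and was beyond 0.2 in size in 4. The medians of the 5 complexes, which share their arrays and controls, were all lower in 42 profiles, all higher in 22 and not of 1 sign in 31, and no complex median was beyond 0.33 in size. The lowest medians, -0.23 after atenolol and after dicyclomine, each held 1 treated array of 3 d that stood apart. Their subunit means were 10.53 and 10.68, beside 12.3 ± 0.123 (SD, n = 217) in controls, and their heart muscle means of 11.74 and 12.14 were below the 13.05 to 13.86 of other arrays. The controls of dicyclomine also held a low array, a water control of 5 d at 10.89. Without such arrays the medians were -0.03 after atenolol, where the treated array was left out, and -0.05 after dicyclomine, where both the treated and the control array were. The water control was also among the controls of oxybutynin, phenytoin, gabapentin and etidronate, whose medians were 0.14, 0.13, 0.13 and 0.11 with it and 0.06, 0.05, 0.05 and 0.02 without it. Without that control trimethadione went from -0.15 to -0.23 and dexchlorpheniramine from 0 to -0.08.

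**Figure D5:**
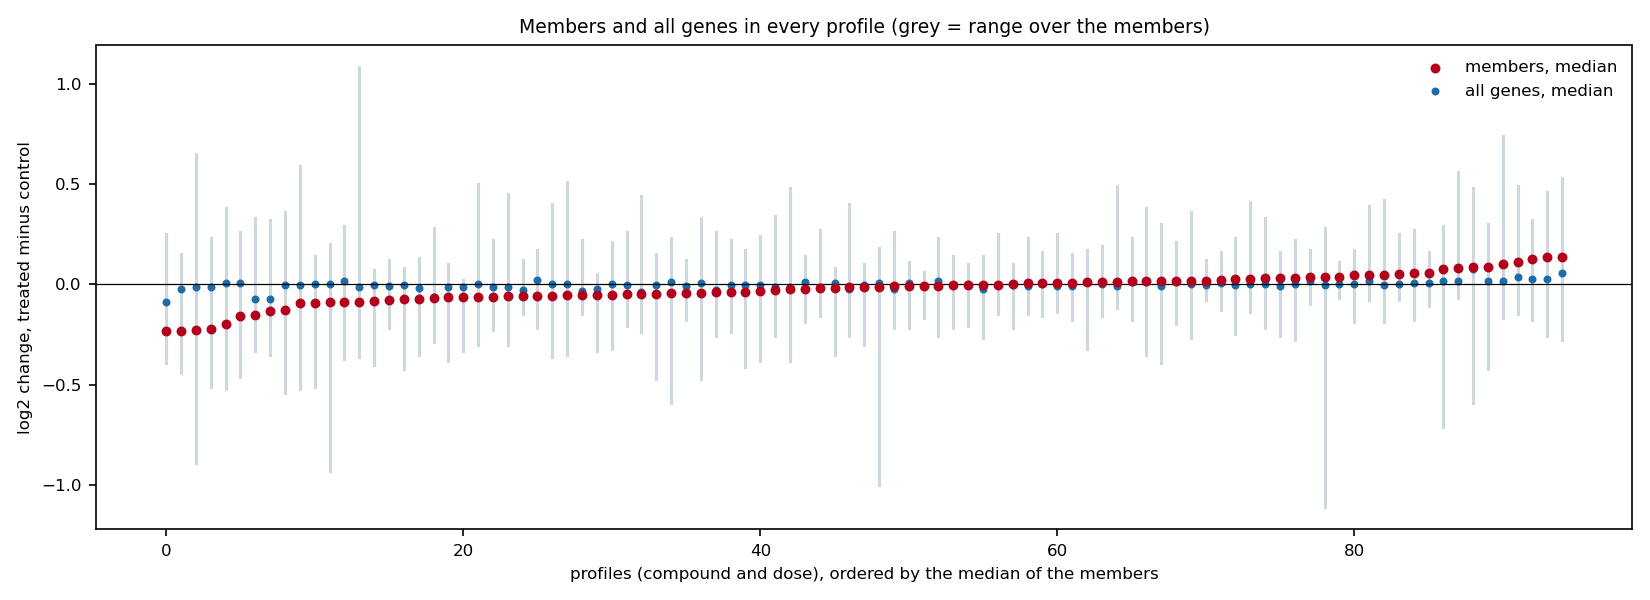
Profiles along the x axis are ordered by the median log2 change of the 86 members (red), with the median of all genes in blue and the range over the members in grey. The red points lie between -0.233 and 0.137.

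Among control animals the subunits varied together. Over 216 controls, centred within extraction campaign, the median correlation was 0.517 for pairs within a complex and 0.468 between complexes, over 813 and 2037 pairs that share their arrays. Hybridisation batch, study and vehicle were not removed, and their part and that of array quality in the correlations were not tested. It was highest in complex II (0.658) and lowest in complex IV (0.16), which holds the dim and tissue-restricted isoforms. Cox6b2, a testis isoform, ran opposite to the mean of the other subunits (-0.361), and Cox4i2 (0.174) and Cox7a1 (0.255) followed it weakly, whereas Ndufa8 (0.868) and Ndufa6 (0.858) of complex I followed it closely. The genes outside the members most alike to the subunit mean were Idh3b (0.813) and Idh3g (0.772), subunits of isocitrate dehydrogenase, Prdx5, a mitochondrial peroxidase (0.797), Psme1, a proteasome activator (0.772), and Cd74, a chaperone of antigen presentation (0.765). Hybridisation batch accounted for 19.7% of the variance of the subunit mean over 828 animals, study for 13.2%, extraction campaign for 9.55% and being treated or control for 0.432%. Without the 4 low arrays, these were 23.7%, 16.8%, 10.3% and 0.818%. The series has 51 hybridisation batches, 65 studies and 5 campaigns. A factor with more levels takes up more variance by itself, so these shares are not compared with each other.

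Control animals of different durations were also compared. In 52 controls of 1 d against 114 of 3 and 5 d, with vehicle, route and campaign as a factor, 0 members passed the adjusted p of 0.01, where 1.55% of all genes were higher and 0.288% lower at 1 d. The changes ran from -0.13 (Cox7a1) to 0.06 (Atp5f1d, SE 0.017, adjusted p 0.012). With the methods' t-test, and with hybridisation batch as a random block, 1 member passed, higher at 1 d. In the 7 described profiles 0 members had a change that differed between durations at an adjusted p of 0.01 by limma's test of the interaction. Of all genes, 0.0633% did after sulindac, 0.0985% after imatinib, 0.0141% after acrolein and after fluocinolone acetonide, 0.0492% after cyclosporin A and none after dexamethasone and isoprenaline.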

How the data were processed

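The authors deposited log2 values, 1 per probe set and array; per the labels' processing notes they come from RMA, which corrects background, normalizes and summarises probes, with no version stated. The study's methods name frma, and which of both made the deposited values is not stated. They ran from 3.15 to 14.8 over 862 arrays of 840 animals, and precision is limited by how many animals a group has. For the 22 rats hybridised again from a later extraction campaign, the earlier array was used.

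Groups came from the labels. Each gene was measured by its single-symbol probe set of highest mean. Profiles were fitted one by one with limma 3.58.1 under R 4.3.3, duration and extraction campaign forming 1 factor, and p-values were adjusted over all 14217 genes. A call required an adjusted p of at most 0.01 and a change of at least 1.5-fold, the thresholds the study used for liver. The labels do not say how animals were allocated, and p-values measure the spread between these animals. The code was tested on simulated data.

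The members, lists and named genes were chosen with earlier results of these data known. Described were the 6 profiles with most members called (ties by the count without the fold minimum), and isoprenaline, chosen after its values were seen. Named were called members, the 10 members called in most profiles (5 had a call, and the rest follow by their count without the fold minimum), isoform pairs, complex II and called genes of the lists. Members named for a change without the fold minimum, and the pericyte list, were also chosen after their values were seen. Levels of a list are means over its genes. Promoter sequences are those of RefSeq on GRCr8. Alternatives were other controls, tests, probe sets, scalings, batch terms and left-out animals. Leaving out arrays that stand apart was, over all profiles and for the control durations, chosen after seeing the data.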

Additional observations from a re-analysis of the deposited data

Results flagged for a closer look

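In 36 tests of groups of 4 to 10 animals, for the mean of the 76 subunits or for 1 of the 5 called genes, 3 held an animal far from the rest, each for the subunit mean. Chance flags about 1 in 20. A water control of 5 d stood at 10.89, the other 8 of its group at 12.06 to 12.40; it is the low array that moved the medians of several profiles. A CMC control of 3 d stood at 12.00, the other 5 at 12.22 to 12.34. A corn oil control of 3 d, one of the 19 shared by sulindac, dexamethasone and cyclosporin A, stood at 12.24, the other 7 at 12.33 to 12.41.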

How the results depend on the processing

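Over all profiles, 1 higher and 7 lower member calls became 4 and 11 with controls of every campaign, and 0 and 2 with controls of the same study alone, which 51 profiles have. The higher count was 0 with the mean of all probe sets and with probe sets without _s_at, _x_at and _a_at. Without the fold minimum the counts were 26 and 142. Atp5if1 after sulindac was at -0.011 when measured by such a plain, dim probe set, the one direction that reversed, and its higher call was then 0.

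By profile, sulindac had 1 lower call with the methods' t-test and with adjustment over all genes and profiles, and 0 higher and 0 lower without the 5 d animals. Its higher count was 0 with the mean of all probe sets. Dexamethasone had 2 lower with controls of every campaign and with hybridisation batch as a fixed factor, and isoprenaline 1 lower with controls of every campaign. Imatinib had 1 lower without the 3 d animals. Acrolein had 0 lower without the 3 d and 2 without the 5 d animals, and cyclosporin A 2 lower without the 5 d animals. Without the fold minimum, higher and lower counts were 1 and 44 for sulindac, 1 and 27 for acrolein, 4 and 4 for dexamethasone, 5 and 1 for fluocinolone acetonide, 3 and 11 for cyclosporin A and 0 and 13 for isoprenaline. With the methods' t-test 1 member changed by duration after sulindac, and 1 was higher in controls of 1 d, as with hybridisation batch as a random block.

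With each animal left out in turn, lower calls ran from 0 to 3 for sulindac, 1 to 2 for dexamethasone and 0 to 2 for cyclosporin A, and kept their count for the other four. Higher calls kept their count in all 7. Ndufa4l2 stayed called in its 3 profiles under every alternative run, with changes of -1.20 to -1.04 after dexamethasone, -1.05 to -0.94 after imatinib and -0.76 to -0.66 after fluocinolone acetonide with 1 animal left out.

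No paired analysis was possible because the labels give no replicate numbers shared between groups. Fits with controls of the same study alone were not run for 5 of the 7 profiles, which have none. In these 5, treatment and study cannot be told apart. The 3 animals of cortisone, prednisone and prednisolone, and the dim probe sets of Cox5a, Cox6b2 and Cox7b2, limit the precision there.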
